A study of Mus musculus with 6 samples.

Results

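Podocytes are the epithelial cells that wrap the glomerular capillaries and hold back protein from the urine. Their interlocking foot processes are joined by the slit diaphragm, a cell junction whose backbone is nephrin, and that junction is anchored to an actin skeleton inside the foot process. The 9 genes described here were chosen by name: Nphs1, Magi2 and Plce1 of the slit diaphragm and its signaling, Synpo, Clic5 and Podxl of the foot process and its surface, the phosphatase gene Ptpro, and the nuclear regulators Wt1 and Cdkn1c. Each matched 1 of the 56747 gene rows in the deposited table, and all 9 passed the filter on low counts that left 17557 genes for testing. In mouse podocytes calcineurin is known to remove phosphate from synaptopodin, the Synpo protein, and so to expose it to cleavage.

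Whole kidneys of male wild-type C57BL/6J mice, an inbred laboratory strain, were profiled by RNA-seq after 30 min of ischemia and 24 h of reperfusion, with 3 libraries in each of 2 groups. The tacrolimus group had oral tacrolimus, an inhibitor of calcineurin, at 1 mg/kg/day for 1 day, and the control group had oral saline, which the sample labels enter as no treatment. All 6 libraries come from injured kidneys, and the ischemia is worded as partial and bilateral for saline but as occlusion of both renal arteries for tacrolimus, so treatment and surgery cannot be told apart. The mice's age is not given in the sources used here, and the labels leave unsaid whether the 3 libraries of a group are 3 mice, so the tests weigh differences against the spread of libraries, which may be technical. The comparison asks whether podocyte transcripts differ with tacrolimus in the injured kidney.

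Library totals ran from 38443534 to 44476844 counts. The saline libraries were not alike. Havcr1, which encodes the tubular injury marker KIM-1, stood at 268, 1598 and 1081 CPM in saline replicates 1 to 3, against at most 118 CPM with tacrolimus; CPM here are read counts divided by library size after TMM scaling. Slc34a1, a phosphate transporter of the proximal tubule, stood at 1987, 335 and 224 CPM in the same saline libraries and at 1981 to 2565 CPM with tacrolimus, so saline replicate 1 lay beside the tacrolimus libraries. Lcn2 and Krt20, also induced in injured tubules, were at 77.1, 517 and 2600 CPM and at 13.4, 216 and 631 CPM with saline, against at most 72.2 and 7.96 CPM with tacrolimus. Lrp2, the proximal tubule's megalin gene, was at 1849, 855 and 318 CPM with saline and 1920 to 2088 CPM with tacrolimus, and Umod, of the thick ascending limb, at 4927, 2352 and 5984 against 4832 to 5765 CPM. The part of this injury difference in the podocyte values was not tested. Tests without saline replicate 1 are therefore also given for the 9 genes and for several other podocyte and glomerular genes named below. These include every such gene whose edgeR call changes. Saline replicate 1 was singled out because its values resembled the tacrolimus libraries. Leaving it out tends to widen the differences and leaves fewer saline libraries. The p-values of that fit are therefore description only and no evidence of a difference.

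Of the 9 podocyte genes, 8 had a higher fitted level with tacrolimus and 1, Synpo, a lower one, and none passed the test. In a whole-kidney sample, fewer podocytes and less RNA per podocyte cannot be told apart. The median log2 fold change of the 9 genes was 0.27, against -0.01 over all genes tested, and 49.3% of all genes had a higher fitted level with tacrolimus. By edgeR's quasi-likelihood test 0 of 9 had an adjusted p under 0.05, where 0.0114% of all tested genes did, and 0 of 9 had an unadjusted p under 0.05, where 12.7% did. DESeq2 also called 0 of 9 after adjustment, where it called 1.96% of all genes, and gave 1 of them, Synpo, an unadjusted p under 0.05, where it did so for 15.6% of all genes. No member kept the groups apart without overlap, whereas 21.8% of all tested genes did.

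**Figure D1:**
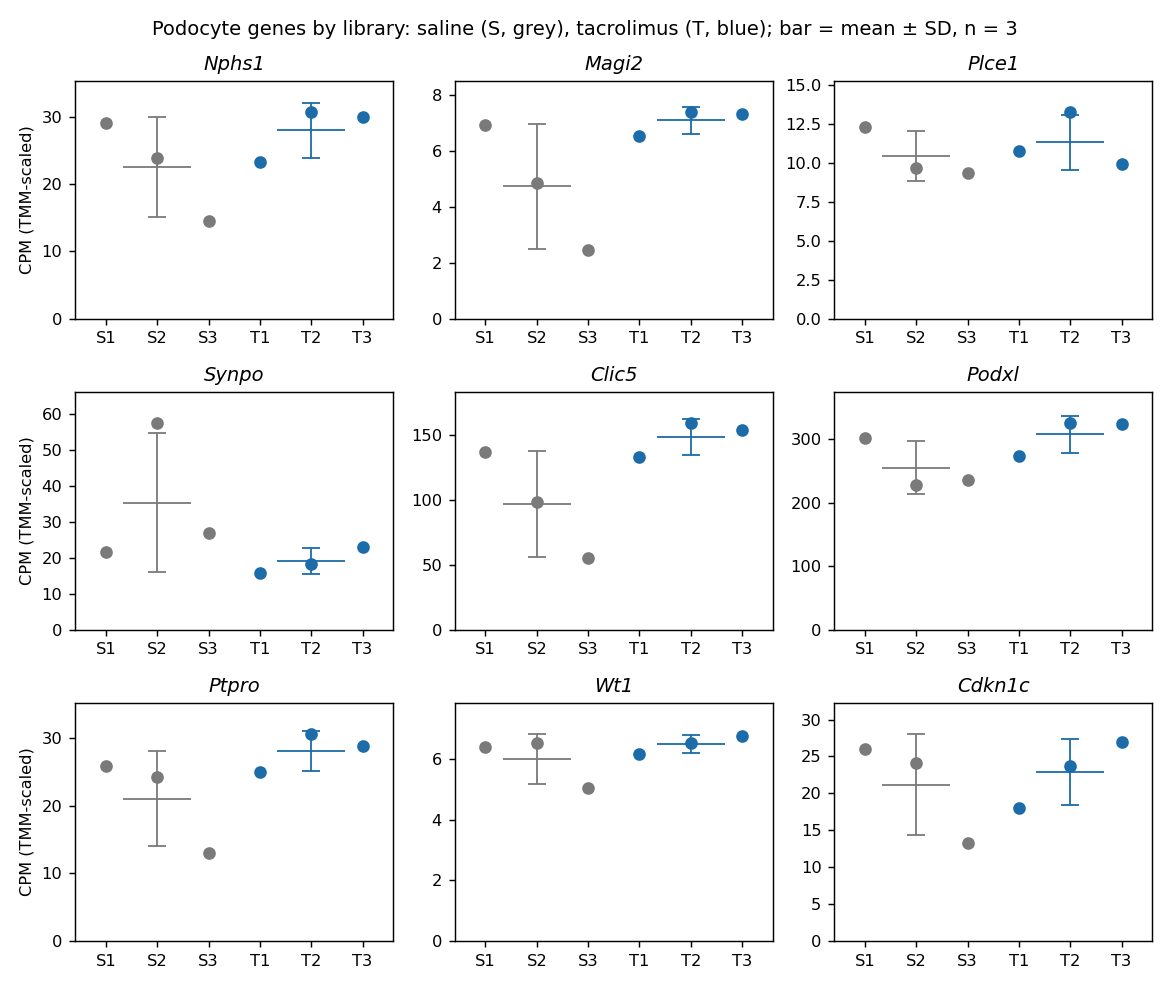
Each panel plots the CPM of 1 podocyte gene (vertical axis, from 0) in the 6 libraries, with saline replicates 1 to 3 (S1 to S3) in grey and tacrolimus replicates 1 to 3 (T1 to T3) in blue, and a horizontal bar with whiskers for the group mean and SD (n = 3). Saline replicate 3 is the lowest point for 7 of the 9 genes, and Synpo alone peaks in saline replicate 2, at 57.4 CPM.

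The spread lay mainly within the saline group. Saline replicate 1 lay inside the range of the 3 tacrolimus libraries for 9 of 9 genes, compared with 49.2% of all tested genes. Saline replicate 3 lay below every tacrolimus library for 8 of 9 genes, compared with 40.0% of all tested genes, and above every one of them for Synpo. For the 55 other podocyte genes described below, it lay below every tacrolimus library for 28 and above every one for 19. Saline replicate 2 was below all tacrolimus libraries for 5 genes, inside their range for 3 and above it for 1. Over all tested genes these shares were 36.6%, 27.0% and 36.4%. Within the tacrolimus group, replicate 1 had the lowest value of the 3 libraries for 8 of the 9 genes, Plce1 being the exception. The share of all tested genes lowest in that library was not computed.

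Nphs1 encodes nephrin, the adhesion protein that spans the slit between foot processes and whose loss causes congenital nephrotic syndrome in humans. The gene, ENSMUSG00000006649, lies at 30157740 to 30186648 on the forward strand of chromosome 7 (GRCm39). With saline its level was 29.1, 24.0 and 14.5 CPM (replicates 1 to 3, the order used throughout), and with tacrolimus 23.3, 30.8 and 30.0 CPM. The groups overlapped, with only saline replicate 3 below the tacrolimus range, and the means were 22.5 ± 7.41 CPM with saline and 28.0 ± 4.11 CPM with tacrolimus (SD, n = 3 each). The log2 fold change was 0.31 ± 0.26 (SE; adjusted p = 0.556, edgeR). A ribosomal protein pseudogene, Rps12-ps4, lies within the Nphs1 span on the other strand with 725 to 1306 counts, and whether the counting used strand is not given in the sources used here.

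Magi2 encodes a scaffold protein with several PDZ domains that binds nephrin at the slit diaphragm. This long gene (ENSMUSG00000040003, chromosome 5, 19432034 to 20909790) had 102 to 311 counts per library, and the 102 in saline replicate 3 was the lowest count of any of the 9 genes. Its level was 6.90, 4.83 and 2.44 CPM with saline and 6.54, 7.38 and 7.32 CPM with tacrolimus. Saline replicates 2 and 3 were low while saline replicate 1 matched the tacrolimus libraries, so the groups overlapped. The saline coefficient of variation was 47.3% and that of the tacrolimus group 6.62%. The fitted difference was 0.58 ± 0.37 on the log2 scale (SE; adjusted p = 0.455, edgeR).

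Plce1 encodes phospholipase C epsilon, a signaling enzyme that is mutated in some childhood nephrotic syndromes. The gene (ENSMUSG00000024998) spans 38469557 to 38773474 on chromosome 19. Its values were 12.3, 9.66 and 9.39 CPM in the saline libraries and 10.8, 13.3 and 9.92 CPM in the tacrolimus libraries. It was among the steadiest of the 9, with a highest value 1.42 times the lowest, and the groups overlapped (log2 fold change 0.12 ± 0.19, SE; adjusted p = 0.760, edgeR). Without tacrolimus replicate 2 its log2 fold change was -0.0105.

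Synpo, which encodes the actin-bundling protein synaptopodin of foot processes and of neuronal dendrites, went against the other 8. The gene (ENSMUSG00000043079) lies at 60727045 to 60793214 on the reverse strand of chromosome 18. It was at 21.7, 57.4 and 26.9 CPM with saline and at 15.9, 18.2 and 23.0 CPM with tacrolimus. Saline replicate 2 stood far above the rest, and saline replicate 1 lay within the tacrolimus range. The means were 35.3 ± 19.3 and 19.0 ± 3.62 CPM (SD, n = 3 each), and the fitted log2 difference was -0.89 ± 0.38 (SE; unadjusted p = 0.0506 and adjusted p = 0.396, edgeR). Without saline replicate 2 the log2 fold change was -0.35, and without saline replicate 1 it was -1.15 (adjusted p = 0.0725, edgeR).

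Clic5 encodes a chloride intracellular channel family protein that sits with ezrin and podocalyxin at the actin-rich cell surface, and it is also expressed in endothelium. At 44445659 to 44591059 on chromosome 17 (ENSMUSG00000023959), it had the largest positive fitted difference of the 9. Its levels were 137, 98.0 and 55.2 CPM with saline and 133, 159 and 154 CPM with tacrolimus. The saline libraries spanned a wide range and the tacrolimus libraries a narrow one, and only saline replicate 1 reached the latter. The log2 fold change was 0.62 ± 0.31 (SE; adjusted p = 0.412, edgeR). Leaving out saline replicate 1 raised it to 0.96 (adjusted p = 0.0583, edgeR), and leaving out saline replicate 3 lowered it to 0.34.

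Podxl encodes podocalyxin, the charged sialoprotein that keeps foot processes apart and that vascular endothelium also carries. The gene (ENSMUSG00000025608, chromosome 6, 31496423 to 31540916, reverse strand) had 302, 228 and 236 CPM with saline and 274, 325 and 323 CPM with tacrolimus. Its spread was narrow, with a coefficient of variation of 16.1% in saline and 9.43% with tacrolimus. The groups overlapped through saline replicate 1 alone, and the log2 fold change was 0.27 ± 0.16 (SE; adjusted p = 0.438, edgeR).

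Ptpro encodes GLEPP1, a receptor tyrosine phosphatase of the apical foot process membrane. It lies on the same chromosome as Podxl, at 137229317 to 137440231 (ENSMUSG00000030223). The saline libraries had 25.9, 24.2 and 13.0 CPM and the tacrolimus libraries 24.9, 30.6 and 28.8 CPM. As for Nphs1, saline replicate 3 was the low library, and the fitted difference was 0.42 ± 0.26 (log2, SE; adjusted p = 0.456, edgeR).

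Wt1 encodes a zinc finger transcription factor required for podocyte identity, and parietal epithelial cells of Bowman's capsule express it too. The gene (ENSMUSG00000016458, chromosome 2, 104956874 to 105003961) stood at 6.39, 6.53 and 5.04 CPM with saline and 6.16, 6.52 and 6.75 CPM with tacrolimus. It varied least among the 9, by 1.34 times from lowest to highest library, and its log2 fold change was 0.11 ± 0.18 (SE; adjusted p = 0.762, edgeR).

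Cdkn1c encodes p57, a cell cycle inhibitor expressed from the maternal allele that marks the resting state of mature podocytes. The gene (ENSMUSG00000037664) lies at 143012076 to 143014787 on chromosome 7 and overlaps a noncoding model on the other strand, Gm44732, with 46 to 80 counts. Values were 26.0, 24.2 and 13.3 CPM with saline and 18.0, 23.7 and 26.9 CPM with tacrolimus. The groups overlapped widely (log2 fold change 0.11 ± 0.28, SE; adjusted p = 0.850, edgeR), and the sign turned without saline replicate 3 (-0.13) and without tacrolimus replicate 3 (-0.03).

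**Figure D2:**
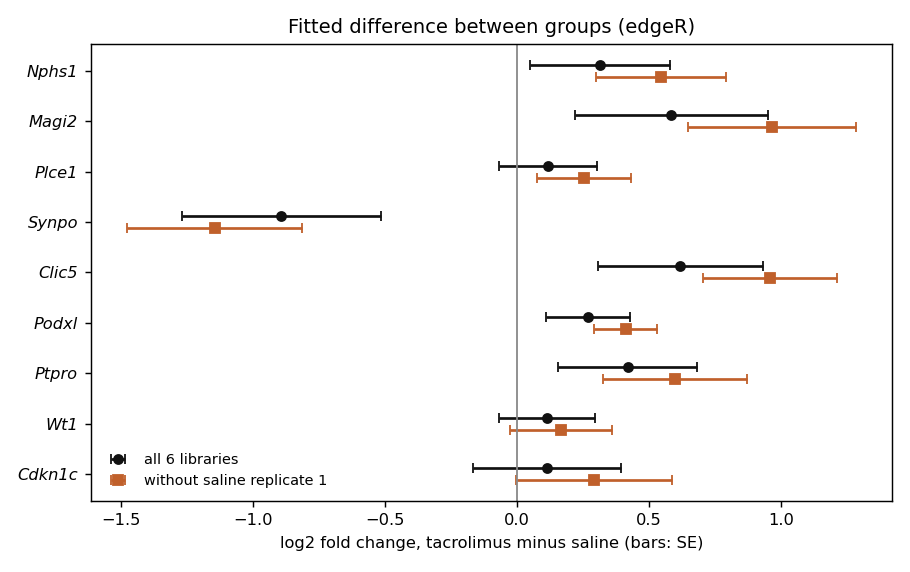
The horizontal axis gives the fitted log2 fold change, tacrolimus minus saline, of each podocyte gene with its SE, from all 6 libraries (black circles) and without saline replicate 1 (orange squares). All estimates but those of Synpo lie above 0, and leaving out saline replicate 1 moves every gene further from 0.

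Without saline replicate 1 the fitted differences were larger for all 9 genes, with a median log2 fold change of 0.41, and 0 of 9 had an adjusted p under 0.05 by edgeR. In that fit 14.0% of all tested genes were called. The log2 fold change was then 0.55 for Nphs1, 0.97 for Magi2, 0.25 for Plce1, 0.41 for Podxl, 0.60 for Ptpro, 0.17 for Wt1 and 0.29 for Cdkn1c. The adjusted p of the 9 genes in that fit ran from 0.0583 for Clic5 to 0.591 for Wt1 (edgeR). At an unadjusted p under 0.05 there were 4 of the 9, against 32.7% of all genes. Without saline replicate 3 instead, the median of the 9 log2 fold changes was 0.08, so the size of the difference depended on that library.

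The genes did not vary as a block, which ratios of counts within a library show free of any scaling between libraries. The Clic5 to Podxl ratio was 0.476 to 0.489 in the 3 tacrolimus libraries and 0.453, 0.430 and 0.234 with saline. The Magi2 to Podxl ratio was 0.0226 to 0.0239 with tacrolimus and 0.0228, 0.0212 and 0.0103 with saline. In saline replicate 3, then, the counts of Clic5 and Magi2 were low also against Podxl of the same library, while Plce1 to Podxl stayed between 0.0307 and 0.0424 in all 6 libraries. The Synpo to Nphs1 ratio was 0.591 to 0.766 with tacrolimus, 0.744 in saline replicate 1, and 2.39 and 1.86 in saline replicates 2 and 3.

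**Figure D3:**
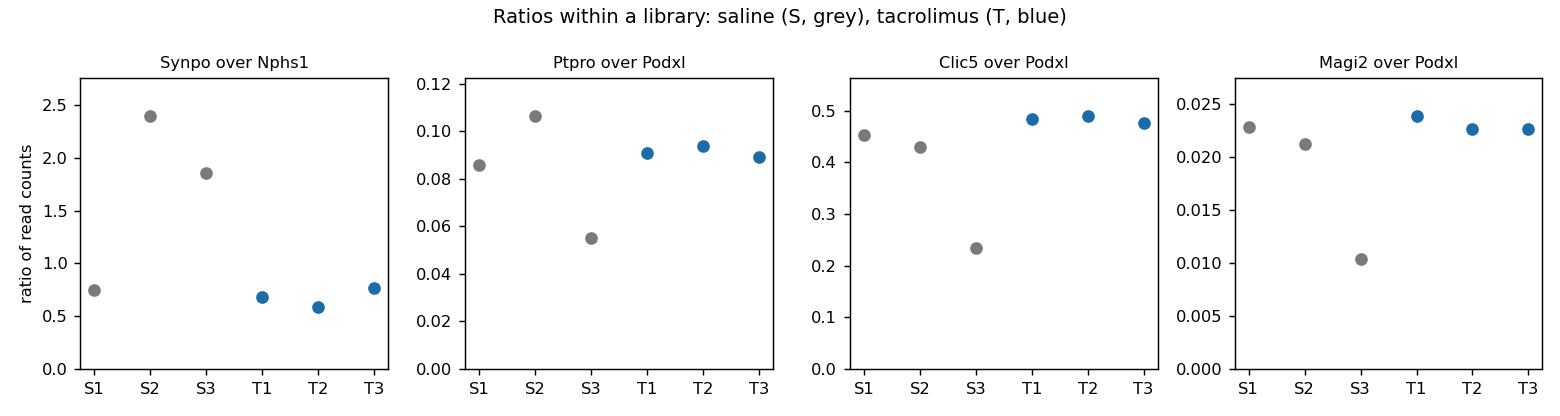
Each panel plots the ratio of the read counts of a pair of podocyte genes (vertical axis, from 0) in saline (S1 to S3, grey) and tacrolimus (T1 to T3, blue) libraries. Saline replicate 3 is lowest in 3 panels, with Clic5 over Podxl at 0.234, Magi2 over Podxl at 0.0103 and Ptpro over Podxl at 0.0551, and Synpo over Nphs1 is highest in saline replicates 2 and 3.

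Levels per length were compared on the deposited FPKM values. Podxl led with a mean of 51.3 ± 7.99 FPKM (SD over 6 libraries), followed by Clic5 at 12.7 ± 4.12 and Cdkn1c at 10.8 ± 2.62 FPKM. Nphs1, Ptpro and Synpo formed a middle tier at 3.82 ± 0.941, 3.66 ± 0.931 and 2.85 ± 1.60 FPKM. Wt1, Plce1 and Magi2 were lowest, at 1.01 ± 0.103, 0.681 ± 0.10 and 0.520 ± 0.172 FPKM. Ranges over the 6 libraries did not overlap between Podxl and Clic5, between Cdkn1c and Nphs1, or between Synpo and Wt1. All other neighbours in the order overlapped, although Wt1 was above Plce1 in 6 of 6 libraries. The FPKM values imply gene lengths 1.02 to 2.01 times those listed in the table for the 9 genes, and with the listed lengths Synpo and Ptpro change places.

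**Figure D4:**
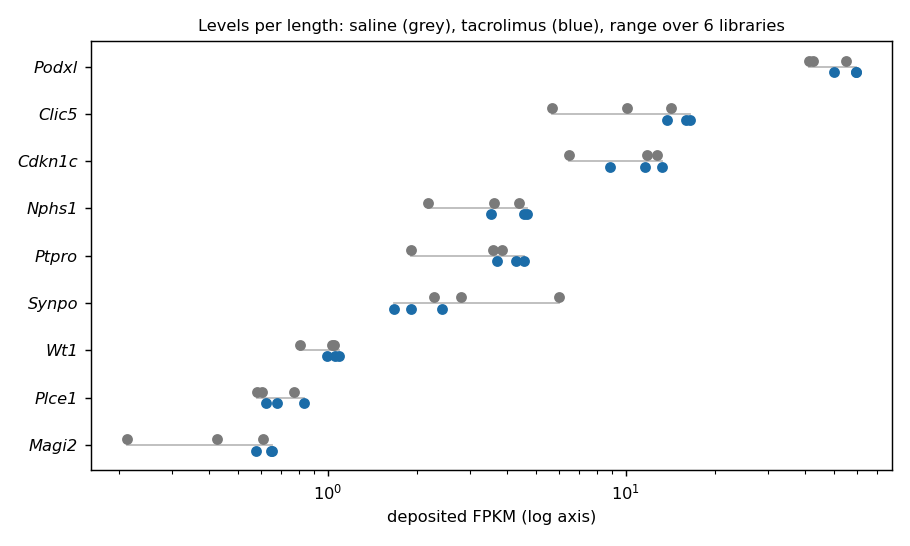
Deposited FPKM values (horizontal log axis) of the 9 podocyte genes in order of their 6-library mean, with saline libraries in grey, tacrolimus libraries in blue and a grey line from the lowest to the highest library. The genes form 3 tiers below Podxl, and Magi2 and Clic5 spread widest toward low values in saline.

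Promoter sequences from RefSeq (GRCm38.p6, 300 bases around each gene's start) were at hand for 5 of the 9 genes. They are shown for the 4 of these genes, Nphs1, Ptpro, Magi2 and Clic5, that had their lowest value in saline replicate 3 and a fitted log2 difference above 0.3, a choice made after the values were seen. WT1 is known to bind G-rich sites, so the core GTGGGNG was searched on both strands, and matches are in capitals (all 4 genes on the forward strand, 5′ to 3′; for Magi2 the first of 2 listed starts, with the match on the reverse strand).
Nphs1 (chr7:30459808-30460107): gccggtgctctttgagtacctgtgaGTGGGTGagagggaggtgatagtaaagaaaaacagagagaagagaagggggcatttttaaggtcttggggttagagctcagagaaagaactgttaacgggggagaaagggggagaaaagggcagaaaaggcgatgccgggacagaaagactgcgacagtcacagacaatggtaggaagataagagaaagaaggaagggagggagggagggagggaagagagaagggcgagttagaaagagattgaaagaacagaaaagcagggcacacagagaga
Ptpro (chr6:137252049-137252348): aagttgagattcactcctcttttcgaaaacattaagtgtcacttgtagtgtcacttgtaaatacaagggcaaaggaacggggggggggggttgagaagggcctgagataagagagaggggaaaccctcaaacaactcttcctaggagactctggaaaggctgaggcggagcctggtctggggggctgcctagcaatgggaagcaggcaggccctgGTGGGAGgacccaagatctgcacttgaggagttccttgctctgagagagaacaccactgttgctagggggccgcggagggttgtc
Magi2 (chr5:19226796-19227095): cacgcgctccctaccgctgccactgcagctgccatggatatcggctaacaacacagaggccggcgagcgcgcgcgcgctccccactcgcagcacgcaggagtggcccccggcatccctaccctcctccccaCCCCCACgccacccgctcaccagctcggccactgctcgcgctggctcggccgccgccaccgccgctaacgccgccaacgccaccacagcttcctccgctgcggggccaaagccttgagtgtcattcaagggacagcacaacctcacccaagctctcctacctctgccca
Clic5 (chr17:44188322-44188621): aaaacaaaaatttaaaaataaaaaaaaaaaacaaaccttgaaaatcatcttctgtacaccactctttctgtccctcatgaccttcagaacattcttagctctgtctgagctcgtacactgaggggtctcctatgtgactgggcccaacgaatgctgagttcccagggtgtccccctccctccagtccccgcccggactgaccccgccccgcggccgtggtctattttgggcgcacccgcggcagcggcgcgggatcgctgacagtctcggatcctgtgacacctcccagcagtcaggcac
The match began at base 26 in Nphs1, 216 in Ptpro and 132 in Magi2, counted from 1 at the 5′ end, and these letters were not in the Clic5 window. The core was also absent from the windows of the other Magi2 start and of Plce1, which are not shown. Of all 32851 promoters of this length 31.6% held the core, so a match is a common feature. The GC content was 49.7% in Nphs1, 54.7% in Ptpro, 69.3% in Magi2 and 54.3% in Clic5, against a median of 52.7% over all promoters.

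Other podocyte genes were drawn from 5 lists of 55 measured genes, and all 55 passed the filter on low counts. Of these, 34 had a higher and 21 a lower fitted level with tacrolimus, and their median log2 fold change was 0.13. None of the 55 passed by edgeR, 11 had an unadjusted p under 0.05 where 12.7% of all genes did, and DESeq2 called 1, Mapt, where it called 1.96% of all genes. The groups did not overlap for 13 of the 55, 9 higher and 4 lower, where 10.7% of all genes were apart in the first direction and 11.0% in the second. Without saline replicate 1, edgeR called 8 higher and 4 lower, where 7.85% of all genes were called higher and 6.16% lower. Of the genes named below, Srgap1, Itga3, Robo2 and Mapt were picked for a small unadjusted p (edgeR, all libraries), so their p-values are description only.

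Among slit diaphragm and junction genes 6 were higher and 7 lower of 13. Cd2ap, an adaptor that links nephrin to actin but is also expressed in tubules, was at 162, 292 and 322 CPM with saline and 148, 141 and 173 CPM with tacrolimus. Saline replicate 1 again sat within the tacrolimus range, and the log2 fold change was -0.75 ± 0.26 (SE; adjusted p = 0.392 with all libraries and 0.00943 without saline replicate 1, edgeR). Kirrel2, a nephrin relative beside Nphs1 on chromosome 7, and the channel gene Trpc6 were near the detection limit, at no more than 0.41 and 0.68 CPM in any library.

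Cytoskeletal genes were split, 5 higher and 6 lower of 11. Actn4, the actin crosslinker alpha-actinin-4, was at 297 ± 54.6 CPM with saline and 332 ± 24.7 CPM with tacrolimus (SD, n = 3 each). Srgap1, a GTPase-activating protein gene expressed in podocytes, was at 11.9 ± 1.26 and 8.71 ± 0.417 CPM, with no overlap. Its adjusted p was 0.392 with all libraries and 0.0691 without saline replicate 1 (edgeR). Of 6 transcription factors 4 were higher.

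Basement membrane genes went in both directions, 5 higher and 4 lower of 9. Col4a3, a chain of the mature glomerular collagen network that distal tubules also make, was at 177, 137 and 114 CPM with saline and 205, 203 and 203 CPM with tacrolimus. The groups did not overlap, and the log2 fold change was 0.52 ± 0.18 (SE; adjusted p = 0.392, edgeR), or 0.71 without saline replicate 1 (adjusted p = 0.0182, edgeR). Lamb2, the laminin chain of that membrane, was at 36.8 ± 5.89 and 50.9 ± 2.54 CPM, also without overlap. For Lamb2 the adjusted p was 0.392 with all libraries and 0.0571 without saline replicate 1 (edgeR). Itga3, the podocyte's laminin-binding integrin subunit, was the other way round, at 62.2, 94.7 and 102 CPM with saline and 48.3, 57.0 and 55.1 CPM with tacrolimus. Its adjusted p was 0.392 with all libraries and 0.00997 without saline replicate 1 (edgeR).

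Of 16 further genes listed as podocyte-enriched 14 were higher. In whole-kidney libraries, reads of listed podocyte genes that come from tubules or other cells cannot be told apart. Robo2, a guidance receptor that is found at foot processes, was at 9.30, 7.11 and 6.26 CPM with saline and 11.9, 13.1 and 11.7 CPM with tacrolimus. All tacrolimus libraries were above all saline libraries (log2 fold change 0.69 ± 0.19, SE; adjusted p = 0.392, edgeR), and without saline replicate 1 the log2 fold change was 0.87 (adjusted p = 0.0217, edgeR). Mapt, which encodes the microtubule protein tau, was at 42.2, 87.2 and 40.0 CPM against 117, 128 and 123 CPM, without overlap (adjusted p = 0.392 by edgeR and 0.0409 by DESeq2). Its log2 fold change was 1.12 with all libraries and 0.95 without saline replicate 1 (adjusted p = 0.101 in the latter, edgeR).

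Genes listed for neighbouring cells of the glomerulus were set beside the podocyte genes, and the part of those cells in the differences was not tested. The libraries are of whole kidney, so reads of these genes from outside the glomerulus cannot be told apart. Of 14 glomerular endothelial genes 13 were higher, and their summed level was 514 to 697 CPM with saline and 737 to 797 CPM with tacrolimus. Mesangial genes were higher in 6 of 7, with sums of 110 to 161 and 161 to 178 CPM. Parietal epithelial genes were split, 2 of 4 higher, with sums of 82.0 to 102 and 82.9 to 94.6 CPM. The 9 podocyte genes summed to 375 to 568 and 513 to 615 CPM. Podxl and Clic5, which endothelium also expresses, held most of that sum (302 and 137 of 568 CPM in saline replicate 1). No gene of these lists was at 0 in any library.

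On the endothelial and mesangial lists the named genes were Kdr, the VEGF receptor of endothelium (log2 fold change 0.81 ± 0.22), Ehd3, a membrane-trafficking gene of glomerular endothelium (0.89 ± 0.26), Pdgfrb, a growth factor receptor of mesangial cells (0.43 ± 0.13), and Art3 (0.86 ± 0.40). For parietal cells they were Cldn1, a tight junction gene (-0.69 ± 0.17), and Dkk3 (0.95 ± 0.32), each value with its SE. None of the 6 passed by edgeR (adjusted p = 0.392 for each but Art3, 0.405), and DESeq2 called Cldn1 (adjusted p = 0.0488). Without saline replicate 1 edgeR called 5 of these 6, with adjusted p = 0.0115 for Kdr, 0.0190 for Ehd3, 0.0348 for Art3, 0.0272 for Cldn1 and 0.0148 for Dkk3, and gave Pdgfrb 0.0795. In that fit 7 endothelial genes were called higher and 1 lower of 14, 2 mesangial genes higher of 7, and 1 parietal gene in each direction of 4, where 7.85% of all genes were called higher and 6.16% lower. Relative to Podxl of the same library, Ehd3 counts were 0.135, 0.126 and 0.0849 with saline and 0.173 to 0.189 with tacrolimus.

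**Figure D5:**
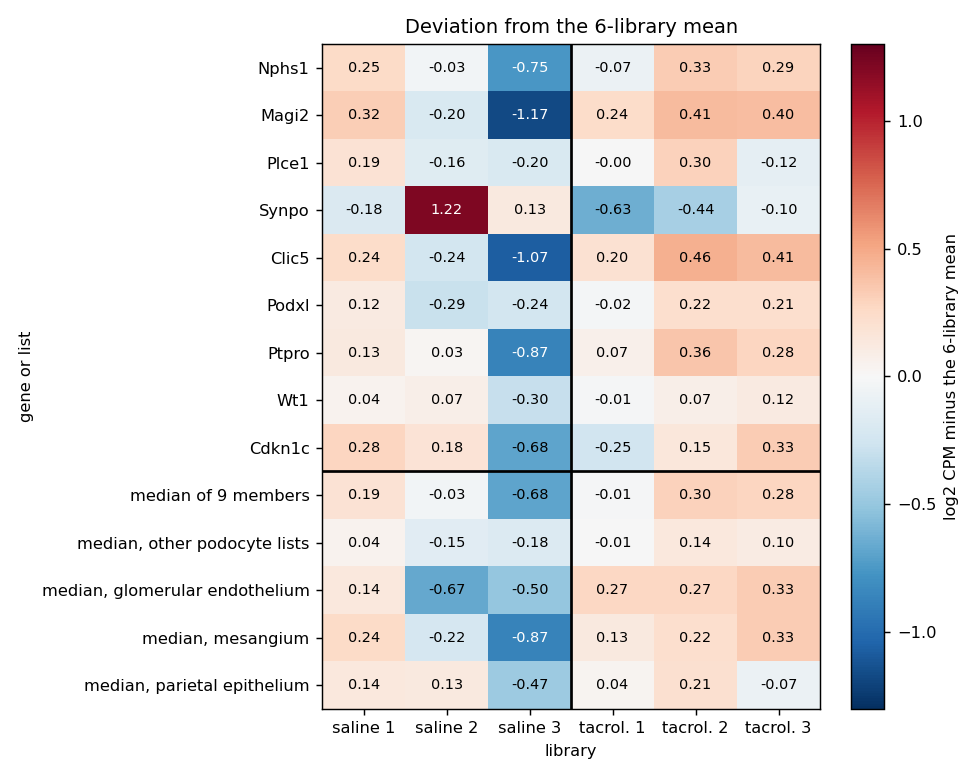
Colour and printed numbers give log2 CPM minus the 6-library mean for each podocyte gene (upper rows) and the median of each marker list (lower rows) across the 6 libraries (columns). The podocyte median is lowest in saline replicate 3 (-0.68), the endothelial median in saline replicate 2 (-0.67), and Synpo has the single highest value, 1.22.

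The median centred profile of the 9 genes was 0.19, -0.03 and -0.68 (log2) over the saline libraries and -0.01, 0.30 and 0.28 over the tacrolimus libraries. Nphs1 followed it most closely, with a root-mean-square difference of 0.05, and Synpo least, at 0.76. Each of the 9 genes is itself part of that median, so some closeness is built in. The mesangial and parietal medians were likewise lowest in saline replicate 3 (-0.87 and -0.47). The endothelial median was lowest in saline replicate 2 (-0.67). The median of the 55 other podocyte genes moved less, to -0.15 in saline replicate 2 and -0.18 in saline replicate 3. Among 11436 other genes with a mean of at least 1 FPKM, Uggt1, Pigh, Bahcc1 and Tbccd1 were among the 5 closest to the podocyte profile over the 6 libraries. Their root-mean-square differences were 0.04 to 0.05, against a median of 0.40 over those genes, and with 6 points per profile many genes can lie close.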

How the data were processed

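Raw read counts and FPKM values per gene for 6 libraries came from 1 deposited table. The deposited counts are whole numbers and were taken as not normalized, since the file headers name them only as count. The deposited FPKM values divide counts by a length and a library total that the sources used here do not state. Per the submitters' processing notes the build was GRCm39. Aligner, counter and strand use: not given in the sources used here. RNA was extracted with TRIzol or a column kit, per the labels' protocols.

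Groups came from the sample titles. The filterByExpr filter (count 10, total 15) was applied, and the remaining genes were scaled by TMM and tested with edgeR 4.0.16 (glmQLFit, robust; glmQLFTest; R 4.3.3), two-sided, with Benjamini-Hochberg adjustment over 17557 genes and a threshold of 0.05. SE values equal the absolute log2 fold change over the square root of F. Centred profiles were computed on log2 CPM, prior count 2. No pair of libraries agreed within sampling noise. The lowest count of any member was 102, and the spread between libraries, not counting, set most of the error. The members and gene lists were chosen with earlier results of these data known. Named genes were all 9 members, 8 other podocyte genes fixed by name, the 6 of those lists and the 2 of each neighbouring list with the smallest unadjusted p, 5 tubule and injury markers, the 5 genes closest in profile and models overlapping a member. Slc34a1 was added after its values were seen. Some genes that this rule names are not reported here. On simulated counts over 17557 genes edgeR recovered 8 of 50 genes changed 2-fold, 32 of 50 changed 4-fold, 41 of 50 changed 8-fold and 45 of 50 changed 16-fold, with 10 false calls. Alternatives were RLE factors, DESeq2 1.42.0, no filter, limma 3.58.1 on log2(FPKM + 0.1) and log2(FPKM + 1), a replicate block and each library left out.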

Additional observations from a re-analysis of the deposited data

How the results depend on the processing

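The call of 0 of 9 podocyte genes held under all 12 alternatives run. The fitted sign of 7 genes also held under all 12, the exceptions being Cdkn1c and Plce1. With libraries left out in turn the log2 fold change of Cdkn1c ran from -0.13 to 0.29 and that of Plce1 from -0.0105 to 0.25. The count of members higher with tacrolimus was 7 or 8 in these fits. The median log2 fold change of the 9 members ran from 0.08 to 0.41, and that of the other podocyte genes from 0.10 to 0.27, in each case highest without saline replicate 1. Over all genes, 2 were called by the main test, both lower. The count was 1 with the replicate block, 1 with limma at either pseudocount, and 344 with DESeq2, 111 of them higher. With libraries left out it ran from 0 to 2534, and from 0 to 1420 for higher calls, the upper values being those without saline replicate 1. The cause of these changes was not tested. The labels do not say that replicate numbers pair the libraries. Same-numbered libraries had correlations of -0.02, -0.01 and -0.05 of their deviations from the group means, which with 3 libraries a group cannot settle pairing. The replicate block changed no call of a member. With levels set by the listed gene lengths, an alternative chosen after seeing the data, Synpo ranked 5 and Ptpro 6 in place of 6 and 5. On the simulated counts, with 3 libraries a group, 2-fold differences were mostly not called. In the real data larger differences also went uncalled. Krt20, Lcn2 and Havcr1, with log2 fold changes of -5.84, -4.40 and -3.95, each had adjusted p = 0.392 (edgeR).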

Other observations

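The deposited FPKM values do not follow the gene lengths listed in the same table. Over 12962 genes with at least 50 counts in every library, the length implied by count, FPKM and library total was a median 1.25 times the listed length, and 23.5% of genes were within 5% of it. For Wt1 the implied length was 5888 to 6359 bases against 3090 listed, for Synpo 9061 to 9786 against 5159, and for Podxl 5216 to 5634 against 5379. The ratio affects the order of levels between genes, not differences between groups, which rest on counts.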
